A study of Mus musculus with 16 samples.

Results

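The surface markers that tell conventional dendritic cells (cDCs) apart were followed in bone marrow progenitors of mice with and without a mammary tumor. They comprise 7 markers of the cDC1 subset (Xcr1, Clec9a, Itgae, Cd8a, Cadm1, Cd24a and Tlr3), 2 of the cDC2 subset (Sirpa and Esam) and Itgax, which all cDCs carry. They were found by gene name among the 31093 names on the array: all 10 genes were present, by 11 probes, as Cd8a has a pair of probes. On 16 one-color Agilent arrays, macrophage-dendritic cell progenitors (MDPs) and common dendritic cell progenitors (CDPs) were profiled in 4 groups of 4 arrays, each numbered 2 to 5. Normal groups came from age-matched female C57/Bl6 mice without a tumor. PyMT groups came from female C57/Bl6 mice carrying a tumor of 1.5 cm in the mammary fat, grown from PyMT B6, 1 cell line made from the MMTV-PyMT mammary tumor model on the same background. The progenitors were sorted from lineage-depleted marrow, and each sample pooled a pair of mice, as the study states. The series' design text gives 4 experiments run separately, and p-values measure the spread between these pooled samples.

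MDPs can still give rise to monocytes and macrophages. They give rise to CDPs, which make plasmacytoid DCs and, through pre-DCs, both cDC subsets. cDC1s take up dead cells and present their antigens to CD8+ T cells, whereas cDC2s present chiefly to CD4+ T cells. Most of the markers are switched on late, in pre-DCs or mature cDCs, but Clec9a is known to be expressed already by CDPs. MDPs and CDPs are told apart by Kit, the stem cell factor receptor, which is higher on MDPs. In the tumor-free mice Kit was 2.59 ± 0.20 (SE) lower in CDPs on the log2 scale (adjusted p = 3.80e-06, limma), in the direction that the labels imply, and it fell by 1.34 ± 0.20 in PyMT CDPs (adjusted p = 0.0044). Kit, Flt3, Csf1r, Cx3cr1 and Ly6a were well above background on all 16 arrays.

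Signals are given as log2 of the processed signal relative to the 75th percentile of the same array, so a value of 0 is the signal of that percentile. Of the 11 probes, 6 (Clec9a, Itgax, Cd24a, Itgae, Sirpa and Esam) exceeded background on 3 or more of the 4 arrays of some group and entered the test of 27431 probes. A probe was called with a false discovery rate under 0.05 and a fold change above 1.5. In PyMT against Normal CDPs, 0 of 6 probes were called, beside 1.79% of all tested probes, 3 had an unadjusted p under 0.05, as had 3752 of all 27431, and a plain t-test with the same adjustment also called 0. In PyMT against Normal MDPs, 0 of 6 were called by limma or by the t-test, beside 0.062% of all probes, and 1 had an unadjusted p under 0.05, as had 2849 of all probes. For the difference between these tumor comparisons, 0 of 6 were called by limma, beside 0.0146% of all probes, and 1 had an unadjusted p under 0.05, as had 1110 of all probes. In CDPs against MDPs, 0 of 6 were called in tumor-free mice, beside 6.07% of all probes, where 2 had an unadjusted p under 0.05, as had 4683 of all probes, and the t-test called 2, and 1271 of all probes. In tumor-bearing mice 2 of 6 were called, Sirpa and Cd24a, beside 7.24% of all probes. The median over all tested probes was 0.08 in CDPs and -0.12 in MDPs for PyMT minus Normal, and 0.02 and 0.19 for CDPs minus MDPs in tumor-free and tumor-bearing mice.

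**Figure D1:**
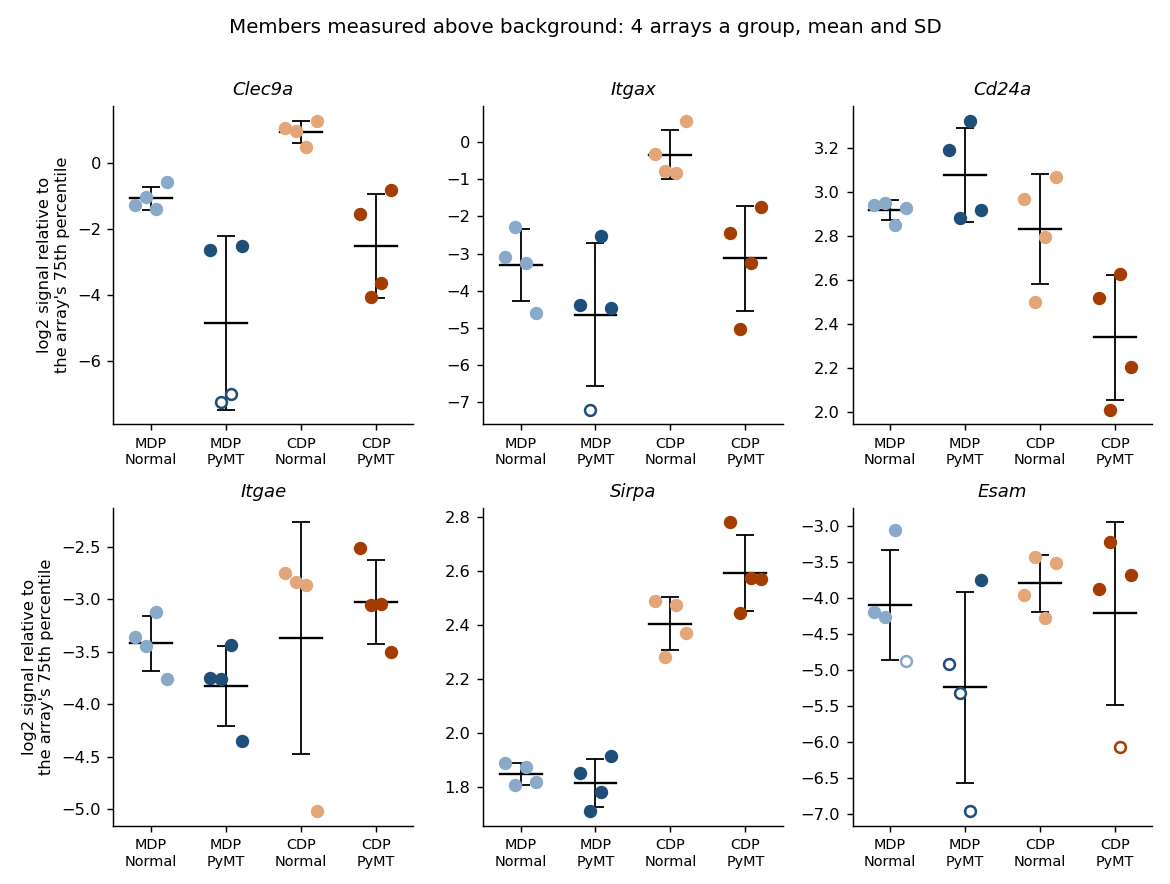
Log2 signal relative to the 75th percentile of the array (vertical axis, its range differs between panels) for the 6 genes measured above background, by group (horizontal axis). Each point is 1 array, filled where the probe was well above background and open where it was not, and bars give the mean and SD of 4 arrays. The 4 Normal CDP arrays lie above the 4 PyMT CDP arrays for Clec9a and Itgax.

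Clec9a and Itgax were the members with the widest differences, and both stood higher in CDPs than in MDPs of tumor-free mice. The sequences just upstream of their RefSeq starts are shown because both genes were lower in PyMT CDPs on every array. The 250 bases before the start (GRCm38.p6) are given from the 5′ end, with capitals marking GGAA, the core letters of sites of the ETS family that includes PU.1 and Spi-B, and TGANTCA, the letters of an AP-1 site, on either strand. Clec9a lies at chr6:129408612-129408861 (+) and Itgax at chr7:128129300-128129549 (+).
Clec9a: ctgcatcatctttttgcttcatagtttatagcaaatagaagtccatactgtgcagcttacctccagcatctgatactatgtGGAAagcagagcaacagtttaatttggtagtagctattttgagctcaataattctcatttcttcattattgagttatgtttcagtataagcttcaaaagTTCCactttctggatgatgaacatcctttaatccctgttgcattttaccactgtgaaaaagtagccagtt
Itgax: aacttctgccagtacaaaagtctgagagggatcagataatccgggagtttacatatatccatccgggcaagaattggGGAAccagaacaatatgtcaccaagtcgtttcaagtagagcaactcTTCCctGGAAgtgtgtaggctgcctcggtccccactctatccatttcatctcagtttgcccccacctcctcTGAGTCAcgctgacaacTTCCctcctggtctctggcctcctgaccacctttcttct
The Clec9a window holds 2 matches to GGAA and 0 to TGANTCA, and the Itgax window holds 4 and 1. GGAA occurs in 93.4% of the 32851 windows of this length in the RefSeq table, and TGANTCA in 6.7%. AGGAAGT, a longer ETS form that contains GGAA (7.7% of windows), had 0 matches in both, as had the letters of an ETS-IRF composite element (2.3%). Such a match is only a run of letters.

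Clec9a encodes DNGR-1, the receptor by which cDC1s sense actin exposed on dead cells. Its probe lies at chr6:129372492-129372551 in the mm9 coordinates of the array files. In Normal CDPs the 4 arrays gave 1.06, 0.95, 0.47 and 1.25, in the order of replicates 2 to 5. In PyMT CDPs they gave -1.54, -4.06, -3.63 and -0.83. Every PyMT array thus lay below every Normal array, with replicates 3 and 4 the lowest. The difference of -3.45 ± 1.02 (SE) on the log2 scale is 10.9-fold, with a 95% interval from -5.63 to -1.26. The exact two-sided permutation p was 0.0286, the smallest that 4 against 4 arrays allow, and the limma adjusted p over all probes was 0.11. With normexp background correction the difference was -2.85 and was called (adjusted p = 0.012). In this comparison, the members whose groups did not overlap were Clec9a and Itgax, 2 of 6, beside 11.1% of all tested probes. In RNA of sorted pools, fewer cells carrying a transcript and less transcript per cell cannot be told apart.

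MDPs showed Clec9a at a lower level. The Normal MDP arrays gave -1.28, -1.05, -1.42 and -0.60, all well above background. The PyMT MDP arrays gave -2.65, -7.25, -7.02 and -2.51, and replicates 3 and 4 were not well above background. These groups did not overlap either, the 1 member of 6 of which this held, beside 5.22% of all probes. The difference of -3.77 ± 1.02 had an exact p of 0.0286 and an adjusted p of 0.26. Its mean includes the 2 PyMT arrays at background, so its size is not a measured fold. It was -2.01 with normexp, and -4.55 to -2.97 when 1 array was left out. The tumor differences in CDPs and MDPs were themselves 0.32 ± 1.44 apart (adjusted p = 0.93). Within slides, which held 1 or 2 arrays of a group, PyMT minus Normal was -4.10, -1.89 and -3.75 in CDPs and -3.79, -5.97 and -1.91 in MDPs, where the first and the second of these include a PyMT array at background. In CDPs against MDPs, Clec9a was 2.02 ± 1.02 higher in tumor-free mice, with no overlap (exact p = 0.0286, adjusted p = 0.35). That difference was called with normexp (adjusted p = 0.042), with the t-test (0.011) and with only these groups in the fit (0.0051). In tumor-bearing mice it was 2.34 ± 1.02, and the groups overlapped (exact p = 0.23, adjusted p = 0.16).

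Itgax encodes CD11c, an integrin alpha chain carried by all cDCs, and its probe lies at chr7:135294052-135294111 (mm9). Normal CDPs gave -0.33, -0.77, -0.83 and 0.57 and PyMT CDPs -2.45, -5.03, -3.26 and -1.75. All PyMT CDP arrays were below all Normal CDP arrays, and replicate 3 was again the lowest. The difference was -2.78 ± 0.87 (6.88-fold, 95% interval -4.65 to -0.91), with an exact p of 0.0286 and an adjusted p of 0.14. With normexp it was -2.11 and was called (adjusted p = 0.023), and without PyMT CDP replicate 3 it was -2.14 (adjusted p = 0.35). Within slides the difference was -2.42, -1.43 and -2.97. Normal MDPs gave -3.10, -2.28, -3.25 and -4.60, and PyMT MDPs gave -4.38, -7.20, -2.53 and -4.46, where replicate 3 was not well above background. The MDP groups overlapped, with a difference of -1.33 ± 0.87 (exact p = 0.29, adjusted p = 0.58). The tumor differences in CDPs and in MDPs differed by -1.45 ± 1.23 (adjusted p = 0.75).

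In tumor-free mice Itgax was 2.97 ± 0.87 higher in CDPs than in MDPs (7.83-fold, exact p = 0.0286, adjusted p = 0.060). This difference passed the threshold with the slide as a block (adjusted p = 0.021), with normexp (0.014), with the t-test (0.043), with only these groups in the fit (0.019) and when PyMT MDP replicate 3 (0.022), PyMT MDP replicate 4 (0.035) or PyMT CDP replicate 3 (0.045) was left out of the shared estimate of spread. In tumor-bearing mice the difference was 1.52 ± 0.87 and the groups overlapped (exact p = 0.26, adjusted p = 0.24). It ranged from 0.60 with normexp to 2.51 with the slide as a block, with no call, and was 3.94 and 2.71 within the 2 slides that held both groups, the first against a PyMT MDP array at background. Monocytes and macrophages also carry Itgax and Sirpa. Gene sums here and below add linear signals, so the brightest genes of a list weigh most. The summed level of 8 monocyte and macrophage genes, in units of the 75th percentile, was 26.8 to 32.7 in Normal MDPs, 25.8 to 32.3 in PyMT MDPs, 33.4 to 45.4 in Normal CDPs and 42.6 to 50.7 in PyMT CDPs. All 8 were well above background on every array, and 8 of 8 were higher in PyMT than in Normal CDPs, with 0 called by limma. Itgax ran the other way in PyMT CDPs, and the part of these cells in any result was not tested.

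**Figure D2:**
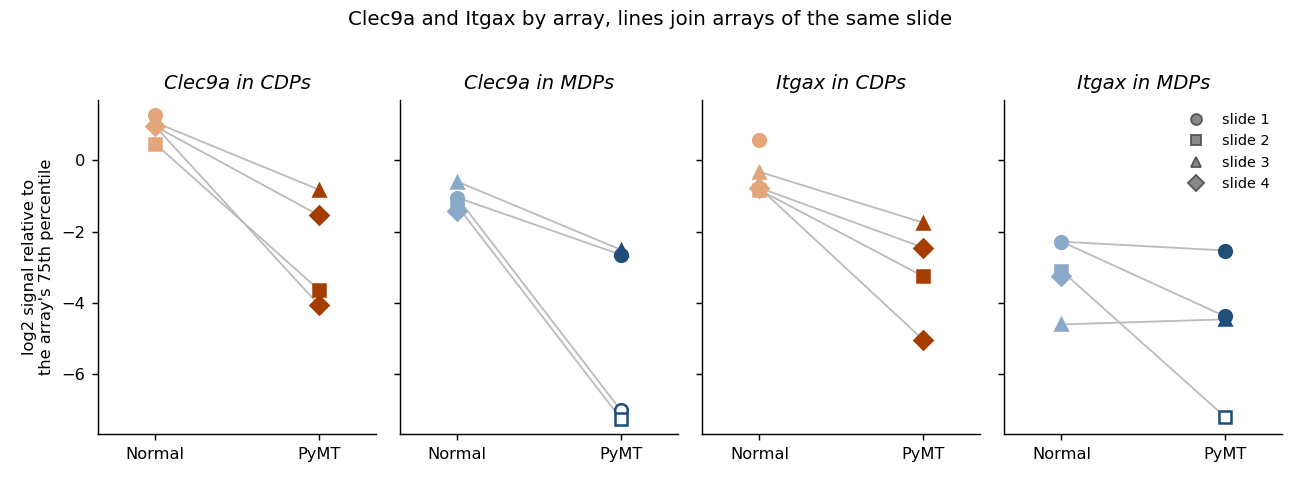
Log2 signal relative to the 75th percentile of the array (vertical axis) for Clec9a and Itgax in CDPs and MDPs, tumor-free (Normal) on the left of each panel and tumor-bearing (PyMT) on the right. Each symbol is 1 array, its shape gives the slide, open symbols were not well above background, and lines join arrays of the same slide. All 3 slides that hold both groups slope down for Clec9a in both progenitors and for Itgax in CDPs.

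Cd24a, a heavily glycosylated surface protein that marks cDC1s in marrow but is also carried by erythroid cells, B cells and neutrophils, was bright on every array (chr10:43303706-43303765, mm9). Normal MDPs gave 2.94, 2.95, 2.85 and 2.93, and PyMT MDPs 3.19, 2.88, 3.33 and 2.92. Normal CDPs gave 2.97, 2.50, 2.80 and 3.07, and PyMT CDPs 2.52, 2.01, 2.63 and 2.20. The PyMT CDPs held the lowest values, but their 2 highest arrays reached the lowest Normal CDP array. The PyMT minus Normal difference in CDPs was -0.49 ± 0.17 (exact p = 0.086, adjusted p = 0.18), against 0.16 ± 0.17 in MDPs (exact p = 0.29, adjusted p = 0.69). The difference between these was -0.66 ± 0.24 with an adjusted p of 0.75. In tumor-bearing mice Cd24a was lower in CDPs than in MDPs by a called 1.67-fold (-0.74 ± 0.17, adjusted p = 0.018, exact p = 0.0286, no overlap). Within slides 2 and 3, the only ones with both of these groups, the difference was -0.256 and -0.718. In tumor-free mice the same difference was -0.09 ± 0.17 (adjusted p = 0.98). The call in tumor-bearing mice was lost with the slide as a block (-0.55, adjusted p = 0.066), with the t-test (0.10), with only these groups in the fit (0.10) and without PyMT MDP replicate 2 (0.053) or 4 (0.060) or PyMT CDP replicate 3 (0.059) or 5 (0.055).

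Genes of the other cells that carry Cd24a were examined too. The summed level of 8 erythroid genes was 2.74 to 5.75 in Normal MDPs, 2.21 to 2.85 in PyMT MDPs, 3.11 to 11.4 in Normal CDPs and 2.03 to 4.41 in PyMT CDPs. Of 7 tested erythroid genes, 7 were lower in PyMT CDPs and 7 in PyMT MDPs, with 0 called by limma. In CDPs against MDPs, 5 were lower and 2 higher, both without and with a tumor. Klf1 was called lower in both of these comparisons (adjusted p = 0.018 in each), beside 3.14% and 3.71% of all probes called lower. The sum of 8 B cell genes was 7.19 to 10.01, 6.70 to 10.4, 6.60 to 8.54 and 6.60 to 8.19 in the same order of groups, and Ms4a1 was not well above background on any array. Cd79b was the brightest B cell gene, with mean log2 signals of 2.98, 2.98, 2.86 and 2.77. The sum of 8 neutrophil genes was 1.42 to 3.43, 3.47 to 6.10, 2.51 to 8.65 and 7.84 to 13.1, and all 8 were well above background on every CDP array. Of these, 4 were higher and 4 (Ltf, Camp, Ngp and Retnlg) lower in PyMT CDPs, and 1, the collagenase gene Mmp8, rose (1.87 ± 0.27, adjusted p = 0.0036), beside 0.802% of all probes called higher. The part of these cells in the level of Cd24a was not tested.

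Itgae encodes CD103, the integrin chain that binds E-cadherin and marks tissue cDC1s and some T cells. The array files give its probe no genome position. It was dim but well above background on all 16 arrays. Normal MDPs gave -3.36, -3.44, -3.12 and -3.76 and PyMT MDPs -3.75, -3.76, -3.44 and -4.35. Normal CDPs gave -2.76, -2.84, -2.86 and -5.02 and PyMT CDPs -2.51, -3.06, -3.04 and -3.50. One Normal CDP array, replicate 5, lay far below its group. PyMT minus Normal was 0.34 ± 0.42 in CDPs (exact p = 0.74, adjusted p = 0.80) and -0.21 without that array. CDPs minus MDPs in tumor-free mice was 0.05 ± 0.42 (exact p = 1, adjusted p = 0.9997) and 0.60 without it. PyMT minus Normal in MDPs was -0.40 ± 0.42 (adjusted p = 0.69). In tumor-bearing mice CDPs were 0.80 ± 0.42 above MDPs (exact p = 0.057, adjusted p = 0.21), and this passed the threshold without Normal CDP replicate 5 (adjusted p = 0.048).

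Sirpa encodes the receptor for the CD47 signal that restrains engulfment, and it marks cDC2s as well as monocytes and macrophages. It had the narrowest spread of the members (chr2:129457873-129457932, mm9). Normal MDPs gave 1.89, 1.81, 1.88 and 1.82, PyMT MDPs 1.85, 1.71, 1.78 and 1.92, Normal CDPs 2.49, 2.28, 2.48 and 2.37, and PyMT CDPs 2.78, 2.45, 2.57 and 2.57. All 8 CDP arrays lay above all 8 MDP arrays. In tumor-bearing mice Sirpa was 1.71-fold higher in CDPs (0.78 ± 0.12, 95% interval 0.53 to 1.02, adjusted p = 0.0010, exact p = 0.0286) and was called. Within slides 2 and 3 it was 0.862 and 0.655 higher there. In tumor-free mice it was 1.47-fold higher (0.56 ± 0.12, adjusted p = 0.0095, exact p = 0.0286), which passed the false discovery rate but fell short of the fold threshold. It was called there after quantile normalization (0.59), in the deposited value table (0.59), with normexp (0.66) and without Normal CDP replicate 3 (0.60). PyMT minus Normal was 0.19 ± 0.12 in CDPs (95% interval -0.06 to 0.43, adjusted p = 0.55) and -0.03 ± 0.12 in MDPs (95% interval -0.28 to 0.21, adjusted p = 0.91). Neither interval leaves room for a change of 1.5-fold. Of 6 tested members, the groups did not overlap in 3 for CDPs against MDPs in tumor-free mice (Clec9a, Itgax and Sirpa) beside 13.3% of all probes, and in 2 in tumor-bearing mice (Cd24a and Sirpa) beside 14%.

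Esam encodes an adhesion molecule of the junctions between endothelial cells that also marks a Notch2-dependent cDC2 subset, platelets and stem cells (chr9:37345795-37345854, mm9). Normal MDPs gave -4.20, -4.27, -3.05 and -4.87 with 3 arrays well above background, and PyMT MDPs -4.92, -5.32, -6.96 and -3.75 with 1. Normal CDPs gave -3.96, -3.44, -4.28 and -3.51 with 4, and PyMT CDPs -3.87, -3.23, -6.07 and -3.68 with 3. All groups overlapped. PyMT minus Normal was -0.42 ± 0.67 in CDPs (adjusted p = 0.84). It was -1.14 ± 0.67 for the MDP groups (adjusted p = 0.56). CDPs minus MDPs was 0.30 ± 0.67 without a tumor (adjusted p = 0.99) and 1.03 ± 0.67 with one (adjusted p = 0.29). Without PyMT CDP replicate 4 the difference in CDPs was 0.20. The stem cell genes summed to 2.36 to 3.46, 2.53 to 3.08, 1.14 to 1.98 and 0.915 to 1.70 over Normal MDPs, PyMT MDPs, Normal CDPs and PyMT CDPs, with Slamf1 not well above background on any array. The 7 megakaryocyte genes summed to 1.53 to 2.36, 0.888 to 1.69, 1.54 to 3.93 and 1.098 to 2.27. The 6 endothelial genes summed to 6.18 to 7.89, 7.07 to 7.74, 3.96 to 5.18 and 3.55 to 4.56, with Ptprb not well above background on any array. Egfl7 was the brightest endothelial gene, with mean log2 signals of 2.59, 2.70, 1.78 and 1.46. The part of these cells in the Esam signal was not tested.

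**Figure D3:**
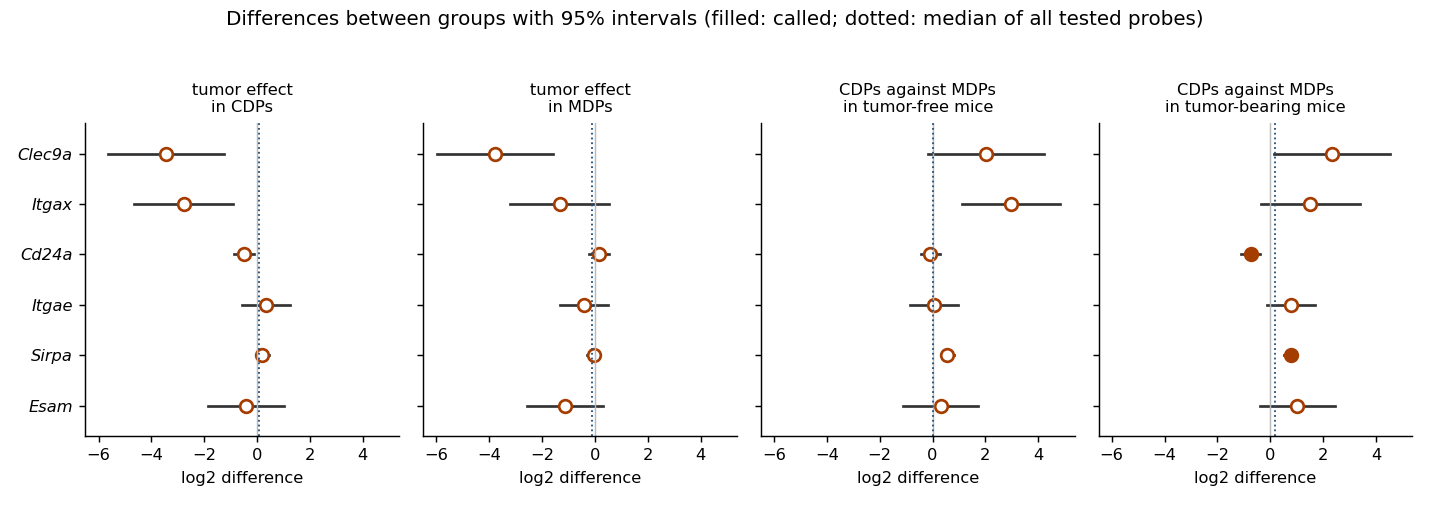
Difference in log2 signal (horizontal axis) with its 95% interval for 6 members (vertical axis) in 4 comparisons, PyMT minus Normal in CDPs and in MDPs and CDPs minus MDPs without and with a tumor. Filled points were called, which held for Cd24a (-0.74) and Sirpa (0.78) in the last panel, and the dotted line is the median of all 27431 tested probes.

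The remaining cDC1 markers were at background in both progenitors. Xcr1, the chemokine receptor that draws cDC1s to Xcl1 (chr9:123761482-123761541, mm9), was not well above background on any of 16 arrays, with values from -7.52 to -5.24. Tlr3, the endosomal sensor of double-stranded RNA (chr8:46481729-46481788), was likewise at background on all 16, from -7.62 to -5.53. Cadm1, an adhesion molecule of cDC1s (chr9:47658414-47658473), was well above background on 4 arrays, 1 of Normal MDPs (-5.03), 2 of Normal CDPs (-3.97 and -5.11) and 1 of PyMT CDPs (-5.07). Cd8a, whose product CD8α marks lymphoid cDC1s and T cells, was read by a probe at chr6:71323885-71323944 and another at chr6:71328911-71328970. The first was well above background on 1 array, Normal CDP replicate 3 (-3.84), and the second on that same sample (-5.15) and on PyMT CDP replicate 5 (-4.17). For Cd8a the other arrays were at background by both probes, and a difference between groups was not detectable for these 4 genes. With no filter on dim probes none of these 5 probes was called in any comparison, with adjusted p of 0.39 or more.

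T cells and plasmacytoid DCs can also carry Cd8a, and some T cells Itgae. Of 9 T cell genes, Cd8b1, the partner chain of Cd8a, and Themis were not well above background on any array, whereas Cd3e was above it on all 16. Of 6 tested T cell genes 6 were higher in PyMT CDPs and 6 were lower in PyMT MDPs, with 0 called by limma. Their medians were 0.577 in CDPs and -0.725 in MDPs, beside 0.077 and -0.115 over all tested probes. The T cell sum was 0.611 to 4.10 in Normal MDPs, 0.373 to 2.61 in PyMT MDPs, 0.414 to 3.43 in Normal CDPs and 1.49 to 4.22 in PyMT CDPs. The sum of 9 plasmacytoid DC genes was 12 to 31.1, 12.9 to 27.6, 16.3 to 32.9 and 21.6 to 41.8 in that order. Of 8 tested, 5 were lower in PyMT CDPs, and 1, Bst2, fell there (-0.69 ± 0.15, adjusted p = 0.038), beside 0.988% of all probes called lower. The brighter probe of Siglech, well above background on every array, gave 0.38 and a dimmer one fell by 2.93 (adjusted p = 0.026). A dimmer probe of Tcf4 fell by 2.79 (adjusted p = 0.028), and its brighter one gave -0.77 (adjusted p = 0.054). Lag3 was not well above background on any array. Both sums overlapped between all groups, and their part in the Cd8a and Itgae signals was not tested.

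**Figure D4:**
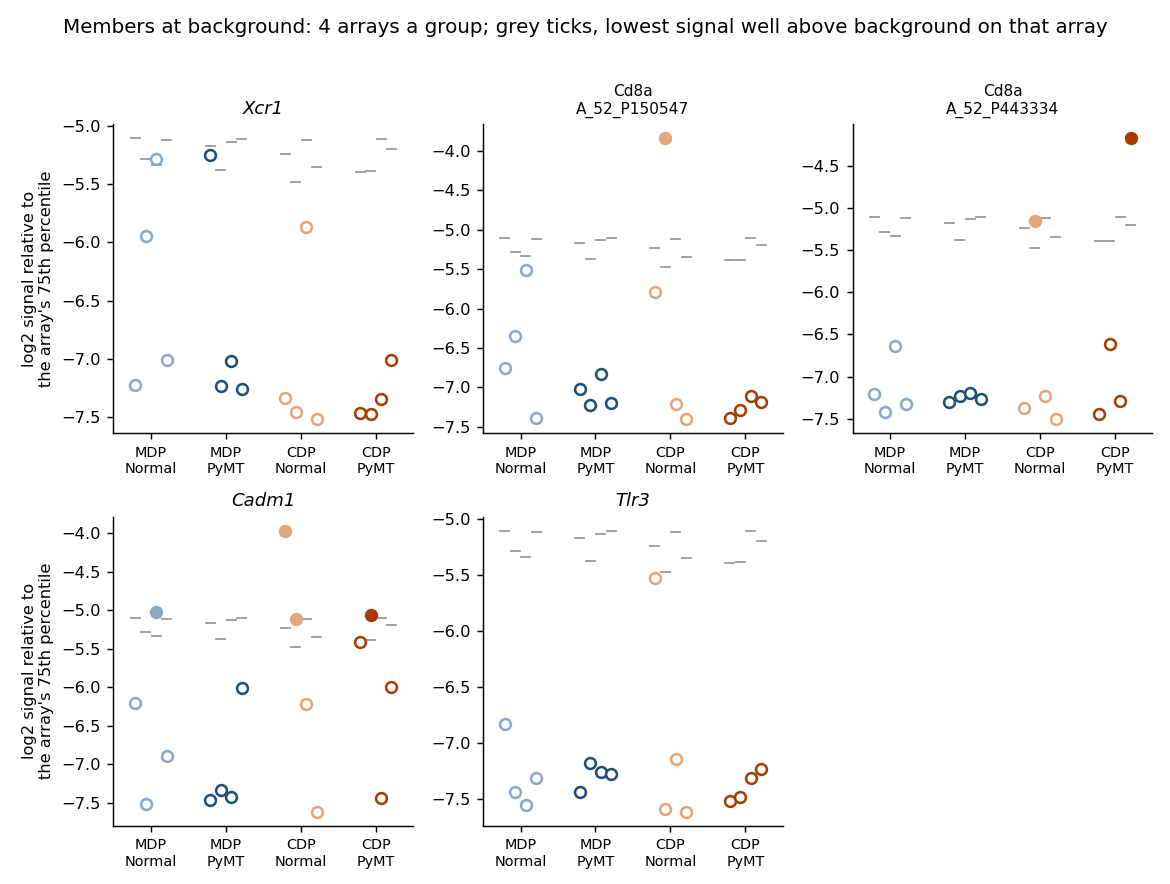
Log2 signal relative to the 75th percentile of the array (vertical axis) for the 5 probes of Xcr1, Cd8a, Cadm1 and Tlr3, by group (horizontal axis). Each point is 1 array, filled where well above background, and grey ticks mark the lowest signal that was well above background on that array. Nearly all points are open, and Xcr1 and Tlr3 have no filled point.

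Other genes of the cDC program were counted from lists, with no test of a list as a whole. In CDPs against MDPs of tumor-free mice, 3 of 12 tested cDC1-associated genes rose and 0 fell, with a median of 0.55, beside 2.93% of all probes called higher and 3.14% called lower. These were Naaa, a lysosomal hydrolase (1.98 ± 0.34, adjusted p = 0.0029), Ifi205 (1.46 ± 0.28, adjusted p = 0.0067), and Id2, a factor needed for cDC1s. Id2 was not well above background on any Normal MDP array and was at least 5.38-fold higher in Normal CDPs (adjusted p = 0.0069). Of 13 cDC2-associated genes 6 rose and 1 fell by their brightest tested probe, with a median of 0.54. The brightest probe of Itgam gave 0.10 and was not called, while dimmer ones rose by 0.77 (adjusted p = 0.048) and 1.09 (adjusted p = 0.031). Cd209a, a C-type lectin, rose by 5.24 ± 0.44, Cd7 by 3.36 ± 0.31, the transcription factors Irf4 by 3.10 ± 0.43 and Klf4 by 1.98 ± 0.28, the lectin Clec10a by 1.06 ± 0.22 and the receptor Notch2 by 0.99 ± 0.20, while the lectin Mgl2 fell by 0.62 ± 0.16 (adjusted p from 1.00093e-05 to 0.033). Of 15 genes shared by cDC subsets 4 rose and 0 fell, with a median of 0.46. They were the factors Spib (4.15 ± 0.61) and Bcl11a (1.11 ± 0.19) and the costimulatory molecules Cd86 (3.88 ± 0.62) and Cd40 (3.19 ± 0.80). In Normal MDPs Cd86 was well above background on 1 array, Spib and Irf4 on 2 and Cd40 on 3, so the sizes of these differences are not measured folds.

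In tumor-bearing mice the counts for CDPs against MDPs were 3 up and 0 down of 12 cDC1-associated genes (median 0.87), 4 up and 1 down of 13 cDC2-associated genes (median 0.66) and 3 up and 0 down of 15 shared genes (median 0.60), beside 3.53% and 3.71% of all probes. Id2 (3.80 ± 0.66), Naaa (2.94 ± 0.34) and Ifi205 (1.46 ± 0.28) rose among the first, with Id2 well above background on 1 PyMT MDP array. Among the second Cd7 rose by 2.29 ± 0.31 and Klf4 by 1.20 ± 0.28, and Mgl2 fell by 0.66 ± 0.16. Cd209a was at least 11.3-fold and Irf4 at least 4.42-fold higher in PyMT CDPs than in PyMT MDPs, where neither was well above background, while a dimmer probe of Cd209a gave 2.69 (adjusted p = 0.10). Among the third were Cd40 (3.51 ± 0.80), Cd86 (2.72 ± 0.62) and Zbtb46 (1.76 ± 0.47), a factor that marks the cDC lineage. A dimmer probe of Zbtb46 gave 1.23 (adjusted p = 0.20) in tumor-bearing mice. In tumor-free mice that probe rose by 4.32 (adjusted p = 0.00073), while the brighter probe gave 1.49 (adjusted p = 0.085). In PyMT MDPs Cd86 was well above background on 1 array, Cd40 on 2 and Zbtb46 on 3.

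Between PyMT and Normal CDPs, 0 of 12 cDC1-associated genes were called by limma (median 0.02), 1 of 13 cDC2-associated genes fell (median 0.08) and 2 of 15 shared genes fell (median -0.41), with none higher, beside 0.988% of all probes called lower. Cd209a fell by 3.25 ± 0.44 (adjusted p = 0.0026), Spib by 3.13 ± 0.61 (adjusted p = 0.021, well above background on 2 PyMT arrays) and Bcl11a by 0.85 ± 0.19 (adjusted p = 0.034). The other probe of Cd209a fell by 4.78 (adjusted p = 0.024), and that of Bcl11a gave -0.90 (adjusted p = 0.11). The study itself names these genes among its cDC program, measured by RT-qPCR, so they are not independent evidence of that direction. It names Irf8 and Batf3 there too, which on these arrays gave -0.02 ± 0.24 (adjusted p = 0.98) and -0.46 ± 0.22 (adjusted p = 0.38). For tumor-bearing mice the study reports both lower by RT-qPCR, and less IRF8 protein in MDPs, CDPs and pre-DCs. Those are other measures than an array probe. Zbtb46 was -0.55 ± 0.47 by its brighter probe (adjusted p = 0.71), whereas its dimmer probe fell by 3.08 (adjusted p = 0.023). Between PyMT and Normal MDPs the counts were 0 of 12, 1 of 13 and 0 of 15, with medians of -0.11, -0.13 and -0.52, beside 0.0292% of all probes called lower. Cd209a was the called gene, at least 2.84-fold lower in PyMT MDPs (adjusted p = 0.011), where it was not well above background on any array. Its other probe gave -0.96 (adjusted p = 0.68). Of 6 tested natural killer cell genes, 1, the lectin receptor Klrd1, fell in PyMT CDPs (-4.56 ± 0.74, adjusted p = 0.0082), where it was well above background on 1 array. Of these 6 genes, 4 were higher and 2 lower in PyMT CDPs, with a median of 0.33.

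**Figure D5:**
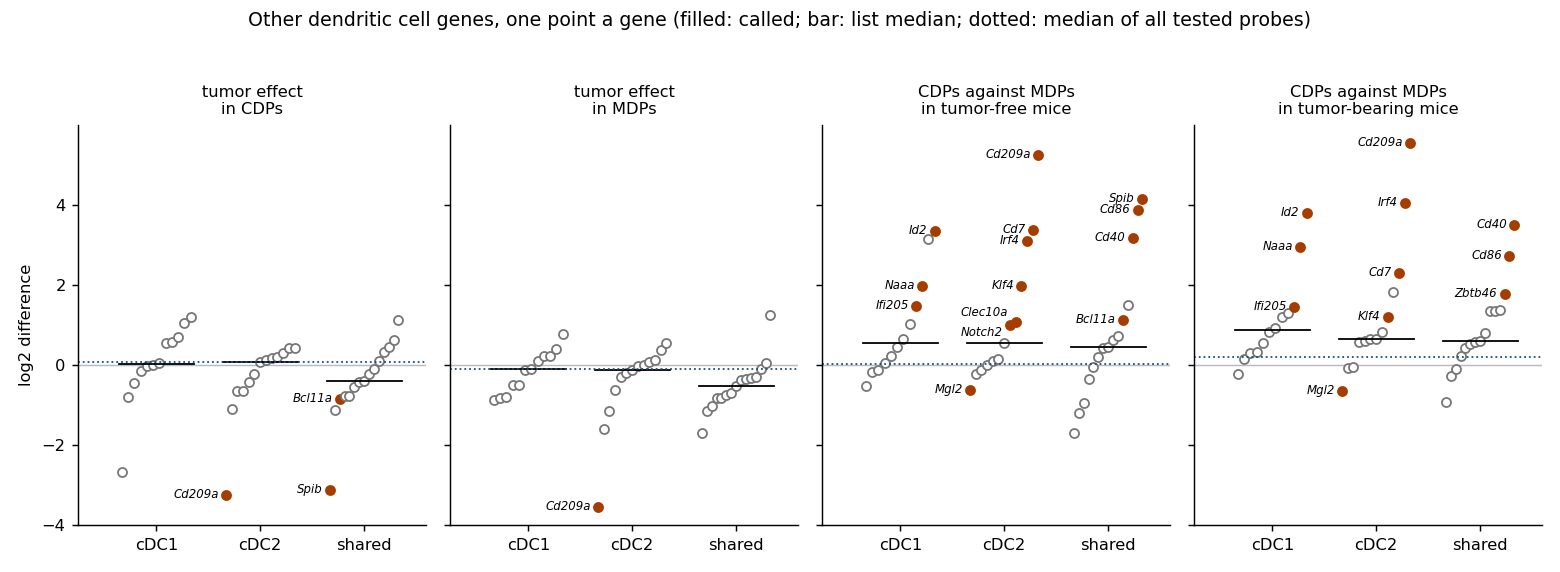
Difference in log2 signal (vertical axis) for the tested genes of 3 lists (horizontal axis), other cDC1-associated, other cDC2-associated and shared cDC genes, in 4 comparisons. Each point is 1 gene, filled and named where called, bars are list medians and the dotted line is the median of all tested probes. In PyMT against Normal CDPs the called genes are Cd209a, Spib and Bcl11a, all lower.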

How the data were processed

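The authors deposited, array by array, the output of Agilent Feature Extraction 11.5.1.1, whose processed spot intensity is background-subtracted and not scaled between arrays. They also deposited a value table on the log2 scale that holds 26793 probes. It correlated with the quantile-normalized log2 intensities at 0.9998 or more, and it was used only as an alternative. Symbols and mm9 positions are those of the spot tables, and RefSeq gave the same symbol for all 11 member probes. Upstream sequences are from RefSeq (GRCm38.p6), in which 5 members had one. How the 26793 probes were selected is not given in the sources used here. The submitters' processing notes name limma.

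Outlier spots (182 to 289 of 44397 spots an array) and control spots were left out and 0 spots were saturated. Spots of a probe were averaged as log2 intensity less that of the 75th percentile on that array. Probes that exceeded background on 3 or more arrays of some group were tested with limma 3.58.1 (R 4.3.3), fitting the 4 group means over 16 arrays. The fit was tested on simulated data. Of all probes, 58.8 to 71.5% were well above background on an array, and the number of arrays limits the precision. Adjusted p-values are Benjamini-Hochberg values over all tested probes, and intervals are 95%. Single members also had an exact two-sided permutation test of 70 relabelings, and the term t-test stands for an unpaired two-sided one, which the study names for its other measurements. Every member probe is reported. Other list genes are named where called, by their tested probe with the highest mean. The members and lists were chosen with earlier results of these data known.

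The arrays lay on 4 slides, and slides 2 and 3 held 1 array of each group. Slide 1 held 2 PyMT MDP arrays and no PyMT CDP array, and slide 4 held 2 PyMT CDP arrays and no PyMT MDP array. CDPs against MDPs in tumor-bearing mice thus partly set slide 4 against slide 1. On slide 1, 58.8 to 64.3% of probes were well above background, and on slide 4, 69.4 to 71.5%. Alternatives were another normalization or scaling, normexp with an offset of 50, the value table, other filters on dim probes, slide or replicate number as a block, only the groups compared, the t-test, no fold change threshold, and leaving out each array. Figures were drawn with matplotlib 3.10.9.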

Additional observations from a re-analysis of the deposited data

Results flagged for a closer look

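In 5 of 44 sets of 4 arrays (11 probes in 4 groups) 1 array stood far from the others by Dixon's criterion, and chance gives about 1 in 20 such sets. For Itgae in Normal CDPs, replicate 5 was at -5.02 while the nearest array was at -2.86, and all 4 were well above background. In 3 others all 4 arrays were at background. Xcr1 was at -5.24 in PyMT MDP replicate 2 (nearest array -7.02) and at -5.86 in Normal CDP replicate 4 (nearest -7.34). Cadm1 was at -6.01 in PyMT MDP replicate 5 (nearest -7.33). The second Cd8a probe was at -5.15 in Normal CDP replicate 3 (nearest -7.23), where it was well above background, the same sample in which the first Cd8a probe was at -3.84.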

How the results depend on the processing

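The number of member probes called in PyMT against Normal CDPs was 0 and became 2 (Clec9a and Itgax) with normexp. In CDPs against MDPs of tumor-free mice it was 0 and became 3 with normexp (Clec9a, Itgax and Sirpa), 2 with the t-test and with only the groups compared (Clec9a and Itgax), and 1 with quantile normalization, the value table and no fold change threshold (Sirpa) and with the slide as a block (Itgax). In tumor-bearing mice it was 2 and became 1 (Sirpa) with the slide as a block, the t-test and only the groups compared. Leaving out 1 array gave 0 to 0 for both tumor comparisons and their difference, 0 to 1 in tumor-free and 1 to 3 in tumor-bearing mice. With the replicate block the counts stayed at 0, 0, 0, 0 and 2. Whether the same replicate number marks the same experiment is not given in the labels. Same-numbered arrays had residual correlations from -0.63 to 0.48. These cannot decide it, because most such arrays lay on different slides. The replicate block called 371, 10, 4, 1427 and 1502 probes in all.

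Of 783 recomputed member differences, 743 kept their direction and their side of the threshold, 18 newly passed, 7 no longer passed and 15 changed sign, none of the 15 called. With normexp the difference of the tumor comparisons for Clec9a was -0.83, and CDPs minus MDPs in tumor-free mice was -0.20 for Itgae and -0.34 for Esam. Leaving out 1 array, the range was -0.476 to 1.103 for that Clec9a difference and, for CDPs minus MDPs in tumor-free mice, -0.15 to 0.60 for Itgae and -0.165 to 0.026 for Cd24a. PyMT minus Normal ranged from -0.21 to 0.54 for Itgae and -0.74 to 0.20 for Esam in CDPs and from -0.066 to 0.003 for Sirpa in MDPs. The cause was not tested.

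Over all probes the calls in the 5 comparisons, in the order of the report, were 491, 17, 4, 1665 and 1986. With the slide as a block they were 1251, 45, 2, 2923 and 1724. For PyMT against Normal CDPs they were 55 with only the groups compared and 3 with the t-test, and in MDPs 11 with quantile normalization and with the strictest filter, 6 with normexp, 7 in the value table, 10 with no filter, 5 with only the groups compared and 1 with the t-test. The difference of the tumor comparisons had 0 calls with quantile normalization, normexp and the value table and 1 with the strictest filter. CDPs against MDPs in tumor-bearing mice had 793 with only the groups compared and 587 with the t-test. Leaving out 1 array gave 153 to 578, 1 to 43, 3 to 7, 1116 to 1713 and 1126 to 3276. Quantile normalization moved the median of all probes from 0.19 to 0.00 for CDPs minus MDPs in tumor-bearing mice, from 0.15 to 0.00 for the difference of the tumor comparisons and from -0.12 to 0.00 in MDPs. Signals near background, such as Clec9a and Itgax on some PyMT arrays, limit how well a fold is known.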
